A study of Homo sapiens with 9 samples.

Results

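The 10 genes described here are SOD1 and SOD2, which encode superoxide dismutases, FTH1 and FTL, which encode the heavy and light chains of ferritin, and 6 genes of the antioxidant response: HMOX1, NQO1, TXNRD1, GCLM, GCLC and SRXN1. They were chosen by gene symbol from a list, not by a cut on their levels, but with earlier results of these data known. They are 10 of the 58735 genes counted, and all 10 were among the 18195 genes with enough reads to be tested. RNA was sequenced from HEK293A cells, an adherent derivative of the human embryonic kidney line HEK293, whose genotype is given as p65 knockout. p65 is the subunit of the transcription factor NF-kB encoded by RELA, and the title of the study names palmitoylation of p65 as its subject. Cells received a plasmid for p65 2CS, a plasmid for p65 WT or an empty vector, with 3 libraries in each of these 3 groups. The labels do not spell out 2CS, and they do not say whether the knockout line was 1 clone or whether libraries within a group stem from separate dishes, so the p-values may measure technical spread alone. All groups, vector included, carried the knockout and were given TNFα at 20 ng/mL for 2 h, starting 24 h after transfection. The response to TNFα itself was therefore not measured.

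Superoxide dismutases turn superoxide into hydrogen peroxide, SOD1 mainly in the cytosol and SOD2 in the mitochondrial matrix. Ferritin stores iron in a form that cannot take part in the reactions that make hydroxyl radicals from peroxide, and its heavy chain carries the ferroxidase activity. SOD2 and FTH1 are widely described as NF-kB targets that limit oxidative damage and cell death after TNF, and SOD2 has a TNF-responsive enhancer inside the gene. The other genes are classical targets of NRF2, a transcription factor that binds antioxidant response elements with small Maf partners and is held in check by KEAP1. TXNRD1 encodes cytosolic thioredoxin reductase, GCLC and GCLM encode the catalytic and modifier subunits of the enzyme that makes the glutathione precursor gamma-glutamylcysteine, SRXN1 encodes sulfiredoxin, which repairs overoxidised peroxiredoxins, NQO1 encodes a quinone reductase, and HMOX1 encodes the inducible heme oxygenase.

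The 250 bases upstream of a RefSeq start site on GRCh38.p14 are shown for SOD2, the member most often tied to NF-kB, and for TXNRD1, GCLM and GCLC, since TXNRD1 and GCLC were called lower in both p65 groups than with vector and GCLM was not. Capitals mark the core of the antioxidant response element, TGACNNNGC on either strand. The windows run 5′ to 3′ on the strand of the gene, which is the minus strand for SOD2 (chr6:159693242-159693491), GCLM (chr1:93909431-93909680) and GCLC (chr6:53545102-53545351), and the plus strand for TXNRD1 (chr12:104286782-104287031).
SOD2: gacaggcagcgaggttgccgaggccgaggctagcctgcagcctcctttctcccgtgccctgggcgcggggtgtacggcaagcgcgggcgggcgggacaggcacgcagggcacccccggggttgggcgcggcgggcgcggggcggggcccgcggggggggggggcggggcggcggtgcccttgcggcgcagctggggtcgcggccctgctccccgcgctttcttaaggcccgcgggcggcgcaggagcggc
TXNRD1: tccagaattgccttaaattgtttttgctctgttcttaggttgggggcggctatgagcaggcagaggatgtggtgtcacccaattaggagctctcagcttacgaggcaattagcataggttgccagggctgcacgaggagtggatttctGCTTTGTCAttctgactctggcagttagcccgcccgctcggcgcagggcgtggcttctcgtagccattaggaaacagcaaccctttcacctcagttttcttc
GCLM: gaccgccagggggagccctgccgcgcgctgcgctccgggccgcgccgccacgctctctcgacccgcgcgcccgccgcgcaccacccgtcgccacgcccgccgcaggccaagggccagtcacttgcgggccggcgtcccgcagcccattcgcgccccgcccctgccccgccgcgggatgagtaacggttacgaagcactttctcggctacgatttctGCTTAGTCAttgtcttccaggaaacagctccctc
GCLC: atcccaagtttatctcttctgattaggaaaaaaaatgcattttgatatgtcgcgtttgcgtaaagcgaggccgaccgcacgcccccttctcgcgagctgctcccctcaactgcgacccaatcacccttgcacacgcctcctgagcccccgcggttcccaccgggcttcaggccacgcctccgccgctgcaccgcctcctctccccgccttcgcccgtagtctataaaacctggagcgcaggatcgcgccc
The core was found in TXNRD1 102 to 94 bases before its start site and in GCLM 34 to 26 bases before its start site, both times on the opposite strand. A second TXNRD1 start site, at position 104215779 of chromosome 12, held the core 99 to 91 bases upstream on the gene's own strand. The windows of SOD2, GCLC, FTL, NQO1 and SRXN1 had no match to it. Of all 35116 human windows of this length, 10.9% held the core. Neither the kappaB consensus, present in 9.96% of all windows, nor the AP-1 letters TGANTCA, present in 6.57%, was found in any of the 11 windows of these 7 genes. RefSeq lists 4 start sites of SOD2, and the window shown is the one with the most matches to the SP1 core GGGCGG: 6, some of them overlapping, against 4, 1 and 1 in its other windows. Of all windows, 42.6% held at least 1 match. SOD1, FTH1 and HMOX1 had no window. Bases outside the windows were not searched, so sites elsewhere in or near these genes could not be seen. These are matches of letters within a short window and not measured binding sites.

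Counts are given as CPM, the usual depth-scaled count, taken here over the TMM-scaled library total, and differences as log2 folds ± standard error from edgeR's quasi-likelihood test, with p-values adjusted by Benjamini-Hochberg over all 18195 genes and called under 0.05. Library totals lay between 15989601 and 25068515 counts. RELA, the check of the labels, had 25747, 26771 and 24036 CPM with p65 2CS, 9048, 8037 and 9922 CPM with p65 WT and 68.1, 69.0 and 65.9 CPM with vector. The p65 groups thus differed in RELA itself by 2.83-fold, and the part of that difference in any result below was not tested. Counts per gene do not show whether the edited stretch of RELA is among the reads that remained with vector. Of the kidney markers UMOD had no read in any library and CDH16 and SLC34A1 had at most 10 reads in all. The summed level of the 10 kidney markers was 33.8 to 35.3 CPM with p65 2CS, 96.9 to 111 CPM with p65 WT and 24.9 to 27.7 CPM with vector. NPHS1 and SIX2 had 4.29 and 13.6 CPM with p65 2CS, and 41.7 and 39.7 CPM with p65 WT. LHX1, EYA1 and PAX2 were no higher with p65 WT than with vector. They had 6.26, 4.12 and 1.78 CPM with p65 WT and 7.64, 5.57 and 1.91 CPM with vector. Of the 7 tested kidney markers, 4 were called higher and 1 lower with p65 WT than with vector. The 5 neural markers summed to 882 to 912, 899 to 928 and 964 to 999 CPM in the same groups, nearly all of it NEFL, with STMN2 at 0 reads. The 5 leukocyte markers summed to 4.09 to 5.16, 3.48 to 4.02 and 4.01 to 4.48 CPM, with PTPRC at 1 read in all. The 8 fibroblast and endothelial markers summed to 61.2 to 63.2, 93.1 to 95.3 and 55.7 to 61.8 CPM, and this sum was the highest with p65 WT. Only 4 of these markers were tested, and 3 of them were called higher with p65 WT than with vector. KDR, also tested, had 0.650, 0.832 and 0.933 CPM in the same groups. The part of these markers in the results was not tested. In cells sampled in bulk, fewer cells with a transcript and less transcript per cell cannot be told apart.

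Per kilobase of the deposited gene length, the ferritin chains and SOD1 stood above the rest. FTL had 355 CPM per kb with p65 2CS, 387 with p65 WT and 393 with vector, FTH1 had 132, 157 and 139, and SOD1 had 96.4, 118 and 104. TXNRD1 had 28.7, 27.8 and 32.3 CPM per kb, GCLC 8.08, 7.68 and 9.21, and GCLM 6.20, 6.61 and 6.64. SOD2 was far lower than SOD1 on this scale, with 3.94, 3.97 and 3.75 CPM per kb, over a listed length of 16493 bases. That length is the union of all exons in the gene model, and the length of the transcripts present was not measured. The gap between SOD2 and SOD1 on this scale therefore depends on the model. In CPM alone SOD2 had 64.9, 65.5 and 61.8, against 195, 239 and 209 for SOD1. SRXN1 had 3.22, 3.62 and 3.89, HMOX1 2.97, 2.99 and 3.37, and NQO1 1.38, 1.62 and 1.68 CPM per kb. The libraries of SOD2 and SRXN1 overlapped on this scale with p65 WT and with vector, and those of SRXN1 and HMOX1 with p65 2CS and with p65 WT. The other neighbours in this order did not overlap in any group. By mean CPM over all libraries FTL ranked 383rd and NQO1 12078th of the 18195 tested genes.

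**Figure D1:**
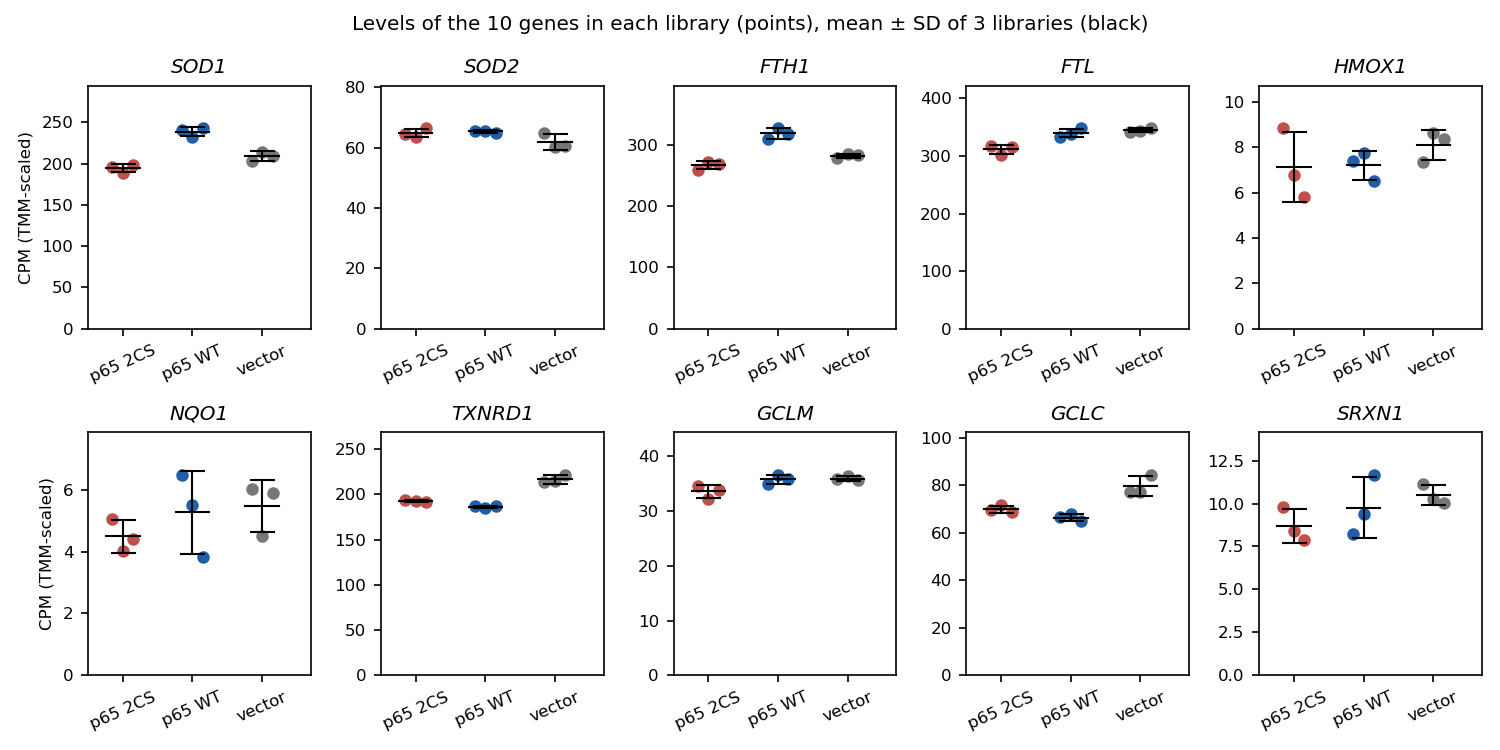
CPM of each of the 10 genes (vertical axes, starting at 0) in every library of the p65 2CS, p65 WT and vector groups; points are libraries and black bars the mean ± SD of 3 libraries. SOD1 and FTH1 are highest with p65 WT, FTL is lowest with p65 2CS, TXNRD1 and GCLC are highest with vector, and SOD2 is nearly level at 60.2 to 66.5 CPM.

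All differences were small. Between p65 2CS and p65 WT, 3 of the 10 genes were called and all 3 were lower with p65 2CS, against 31.2% of all tested genes called in either direction, 17.9% lower and 13.4% higher. Between p65 2CS and vector, 5 of the 10 were called and all 5 were lower with p65 2CS. Of all tested genes, 23.4% were called there in either direction, and 11.4% of all tested genes were lower and 12.1% higher. Between p65 WT and vector, 4 were called, 2 higher and 2 lower with p65 WT, against 28.8% of all tested genes, 16.4% higher and 12.5% lower. The median log2 fold over the 10 genes was -0.11, -0.16 and -0.036 in these 3 comparisons, beside 0.0030, -0.0018 and -0.023 over all tested genes. No member's log2 fold exceeded 0.30 in size, and the median size among all called genes was 0.28, 0.23 and 0.31. The ranges of the libraries did not overlap for 6, 7 and 5 members, against 40.7%, 36.6% and 40.5% of all tested genes. The 3 comparisons share libraries in pairs, so their values stand side by side here and are not independent of each other.

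**Figure D2:**
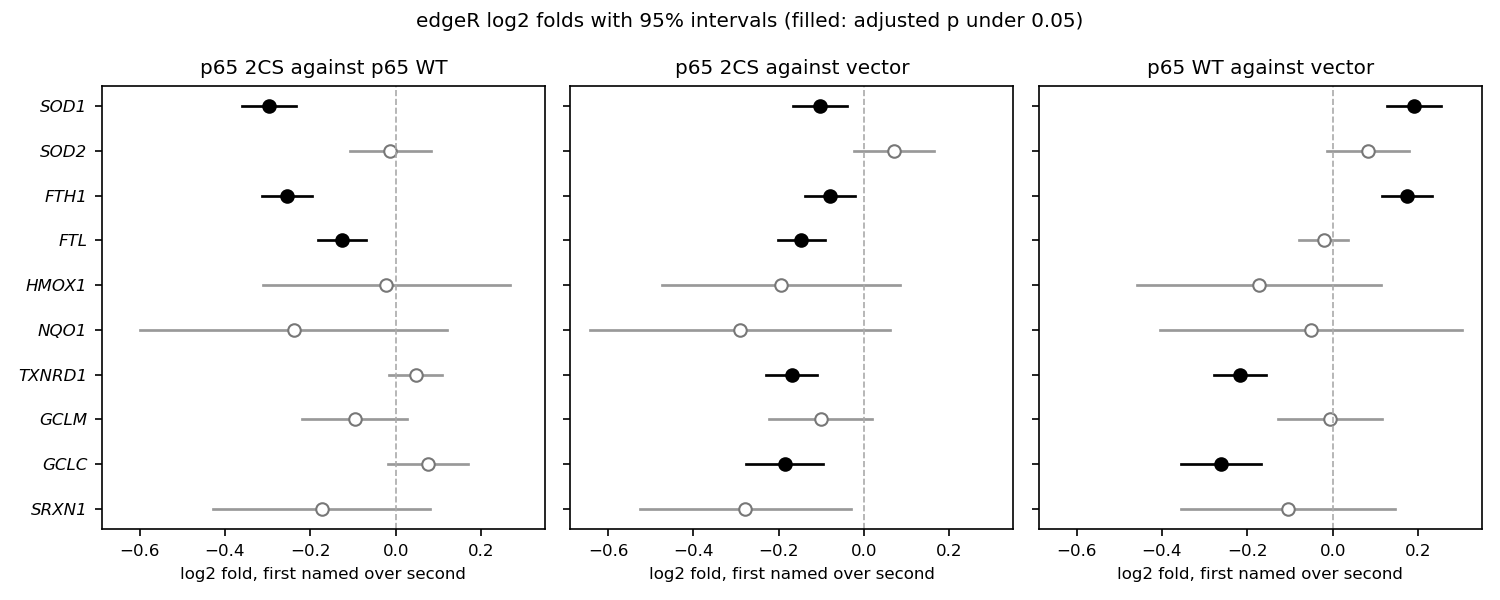
Log2 fold of each gene (horizontal axis, first-named group over second) with its 95% interval, in 1 panel per comparison; filled black points passed an edgeR adjusted p of 0.05. All called points lie left of 0 in both panels with p65 2CS, while with p65 WT against vector SOD1 and FTH1 lie right and TXNRD1 and GCLC lie left of 0.

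SOD1 was called in all 3 comparisons and SOD2 in none. SOD1 (ENSG00000142168, chr21:31659622-31668931, plus strand) had 196, 189 and 199 CPM with p65 2CS, 241, 233 and 243 CPM with p65 WT and 203, 214 and 210 CPM with vector. The 3 groups did not overlap, and the order was p65 WT, vector, p65 2CS from the top. SOD1 was lower with p65 2CS than with p65 WT by a log2 fold of -0.30 ± 0.031 (edgeR adjusted p = 3.8e-10) and than with vector by -0.10 ± 0.031 (edgeR adjusted p = 0.012). With p65 WT against vector it was higher by 0.19 ± 0.031 (edgeR adjusted p = 4.0e-06). The difference from vector with p65 2CS lost its call without vector replicate 2 (edgeR adjusted p = 0.094) or without p65 2CS replicate 8 (edgeR adjusted p = 0.10).

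SOD2 (ENSG00000112096, chr6:159669057-159745186, minus strand) had 64.6, 63.6 and 66.5 CPM with p65 2CS, 65.7, 65.7 and 64.97 CPM with p65 WT and 64.8, 60.2 and 60.5 CPM with vector. One vector library reached the level of the p65 2CS libraries, while the p65 WT libraries all lay just above the vector libraries. No comparison of SOD2 was called. The log2 fold of p65 2CS over p65 WT was -0.013 with a 95% interval of -0.11 to 0.08 (edgeR adjusted p = 0.87). Those over vector were 0.07 with p65 2CS (interval -0.02 to 0.16, edgeR adjusted p = 0.31) and 0.08 with p65 WT (interval -0.01 to 0.18, edgeR adjusted p = 0.20). Together these intervals run from -0.11 to 0.18 on the log2 scale, so larger changes of SOD2 lie outside them. The 3 NF-kB target genes set beside it moved much further in the same libraries.

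NFKBIA, which encodes the inhibitor IkB-alpha, had 104, 116 and 112 CPM with p65 2CS, 310, 322 and 319 CPM with p65 WT and 36.3, 36.9 and 35.9 CPM with vector. TNFAIP3, which encodes the feedback inhibitor A20, had 50.0, 51.2 and 44.7 CPM with p65 2CS, 222, 214 and 214 CPM with p65 WT and 7.36, 7.54 and 6.02 CPM with vector. NFKB2, which encodes the p100 precursor, had 117, 113 and 111 CPM with p65 2CS, 374, 340 and 381 CPM with p65 WT and 49.2, 50.2 and 48.8 CPM with vector. All 3 genes separated the groups without overlap, highest with p65 WT and lowest with vector. Their log2 folds were 1.20 to 2.80 with p65 2CS over vector, 2.89 to 4.95 with p65 WT over vector, and -2.15 to -1.52 with p65 2CS over p65 WT.

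**Figure D3:**
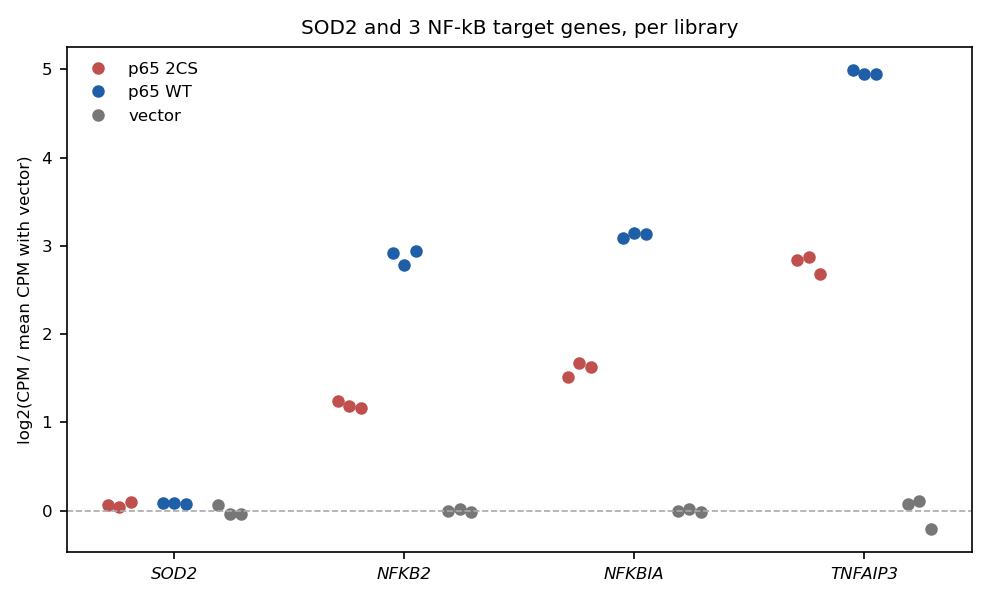
Log2 of CPM over the mean CPM with vector (vertical axis) for SOD2, NFKB2, NFKBIA and TNFAIP3 in each library; each point is a library, ordered p65 2CS, p65 WT and vector within a gene. The SOD2 libraries lie near 0 in all groups, whereas the p65 WT libraries of TNFAIP3 lie near 5.

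The SOD2 count depends on a crowded locus. In GENCODE release 29, which holds all 58735 deposited gene identifiers at the same positions, the gene shares 845 exon bases with a second entry of the same symbol on the same strand (ENSG00000285441) and 298 with WTAP on the opposite strand. The shared bases are 6.93% of its exon bases but 803 of its 1044 coding bases. The second entry had 2 reads in all, both with vector, and was not tested. Neither the program that counted reads nor its use of strand is given in the sources used here, so reads in the shared bases may have been dropped or assigned to either gene. The level of SOD2 relative to other genes carries that limit, and its effect on the comparison of groups was not tested. Over the 9 libraries, the tested genes whose log2 CPM was most like that of SOD2 by Pearson's r were CPSF7 (0.957), RPS26P6 (0.947), MYH7B (0.915), LTB (0.913) and AL162727.1 (0.912). SOD2 itself spanned only 0.142 on the log2 scale over these libraries, which share the group means and the scaling, and 7 genes reached an r over 0.9.

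Both ferritin genes were lower with p65 2CS than in either other group, and FTH1, but not FTL, was called higher with p65 WT than with vector. FTH1 (ENSG00000167996, chr11:61959718-61967660, minus strand) had 260, 273 and 269 CPM with p65 2CS, 310, 328 and 319 CPM with p65 WT and 278, 285 and 284 CPM with vector. Its groups did not overlap and stood in the order of SOD1. The log2 fold of FTH1 was -0.26 ± 0.029 with p65 2CS over p65 WT (edgeR adjusted p = 2.2e-09) and 0.17 ± 0.029 with p65 WT over vector (edgeR adjusted p = 5.4e-06). With p65 2CS over vector it was -0.08 ± 0.029 and just passed the threshold (edgeR adjusted p = 0.038). That last call was lost without vector replicate 2 (edgeR adjusted p = 0.13), vector replicate 3 (0.10), p65 2CS replicate 7 (0.19) or p65 2CS replicate 9 (0.056), and also with DESeq2's size factors (0.072), with DESeq2's own test (0.094) and without the expression filter (0.085).

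FTL (ENSG00000087086, chr19:48965301-48966878, plus strand) had 318, 303 and 315 CPM with p65 2CS, 333, 338 and 348 CPM with p65 WT and 342, 344 and 348 CPM with vector. The p65 2CS libraries lay below all others, and the p65 WT and vector libraries overlapped. The log2 fold of FTL was -0.13 ± 0.028 with p65 2CS over p65 WT (edgeR adjusted p = 0.00044) and -0.15 ± 0.028 with p65 2CS over vector (edgeR adjusted p = 8.7e-05). With p65 WT over vector it was -0.02, with a 95% interval of -0.08 to 0.04 (edgeR adjusted p = 0.63).

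Summed over both chains, ferritin reads came to 577, 575 and 584 CPM with p65 2CS, 643, 666 and 667 CPM with p65 WT and 621, 630 and 632 CPM with vector. With TMM scaling the 3 groups did not overlap in this sum. An exact permutation test over libraries, two-sided, gave p = 0.1 for each pair of groups, the smallest value that 3 against 3 libraries allow. The log2 difference of the sum with p65 WT over vector was 0.070. Under the alternatives listed below it ranged from 0.028 to 0.087, with exact permutation p-values from 0.1 to 0.3. For both comparisons of p65 2CS the exact permutation p stayed at 0.1. The ratio of FTH1 to FTL CPM, chosen after the values were seen, was 0.817, 0.901 and 0.852 with p65 2CS, 0.930, 0.969 and 0.915 with p65 WT and 0.813, 0.828 and 0.815 with vector. The ratio was higher in every p65 WT library than in any other, and those of p65 2CS and vector overlapped. Its exact permutation p was 0.1 for p65 2CS against p65 WT, 0.2 for p65 2CS against vector and 0.1 for p65 WT against vector. Such a ratio shows unequal change of the chains within a library and does not depend on the scaling between libraries.

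The ratio of SOD2 to SOD1 CPM was 0.329, 0.337 and 0.335 with p65 2CS, 0.273, 0.283 and 0.267 with p65 WT and 0.319, 0.281 and 0.288 with vector. It was higher in the p65 2CS libraries than in any other, and those of p65 WT and vector overlapped. The log2 difference was 0.28 between p65 2CS and p65 WT and 0.17 between p65 2CS and vector, each with an exact permutation p of 0.1, and -0.11 between p65 WT and vector with p = 0.2. In each of these comparisons SOD1 moved further than SOD2.

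**Figure D4:**
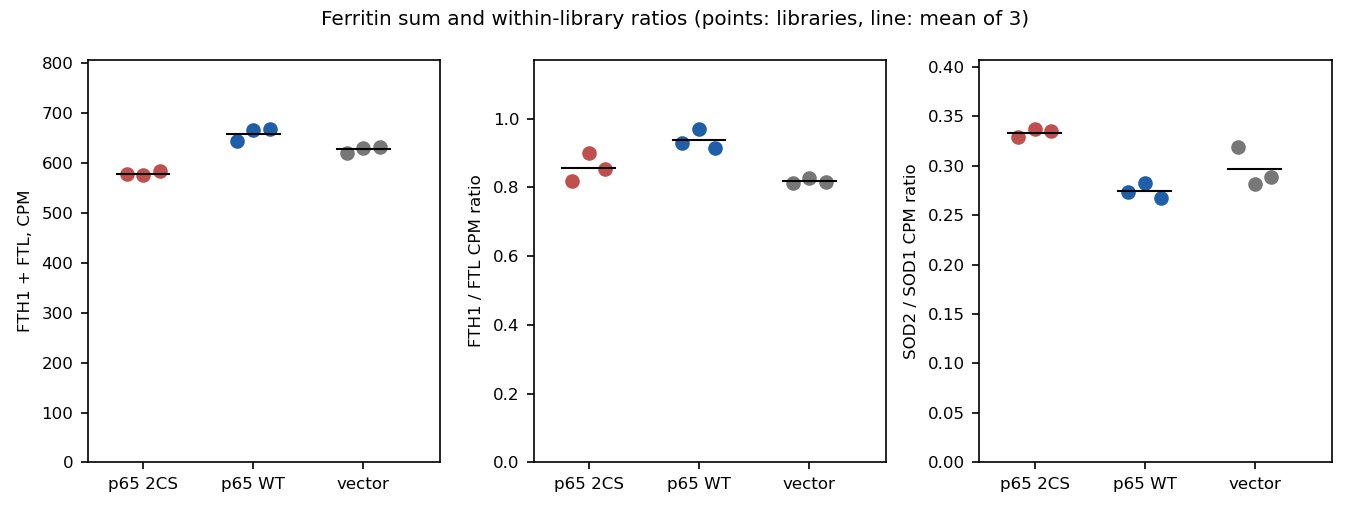
Sum of FTH1 and FTL CPM, FTH1 to FTL ratio and SOD2 to SOD1 ratio (vertical axes, starting at 0) in each library of the p65 2CS, p65 WT and vector groups; points are libraries and lines the mean of 3. The ferritin sum averages 579 CPM with p65 2CS, 659 with p65 WT and 627 with vector, and the SOD2 to SOD1 ratio is highest with p65 2CS.

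Reads of the ferritin genes may be shared with other gene models, and their origin was not measured. FTH1 shares 1267 of its 2030 exon bases with BEST1 on the opposite strand, which had 493 reads with p65 2CS, 270 with p65 WT and 613 with vector in total. Without a known strand setting the 2 cannot be told apart in those bases. Ferritin also has many processed pseudogenes: 25 entries carry an FTH1 pseudogene symbol, and together they held 586 reads, 1.22% of the reads of FTH1. The 16 FTL pseudogenes held 80 reads, 0.145% of those of FTL, and none of these entries passed 1 CPM in any group. Adding the pseudogene reads to their parents changed no call of a member.

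TXNRD1 and GCLC were lower in both p65 groups than with vector. TXNRD1 (ENSG00000198431, chr12:104215779-104350305, plus strand) had 194, 192 and 192 CPM with p65 2CS, 187, 185 and 187 CPM with p65 WT and 213, 214 and 222 CPM with vector. Its log2 fold over vector was -0.17 ± 0.030 with p65 2CS (edgeR adjusted p = 2.9e-05) and -0.22 ± 0.030 with p65 WT (edgeR adjusted p = 2.0e-07). The p65 2CS libraries lay just above the p65 WT libraries without overlap, but that difference of 0.05 was not called (95% interval -0.01 to 0.11, edgeR adjusted p = 0.26).

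GCLC (ENSG00000001084, chr6:53497341-53616970, minus strand) had 69.4, 71.5 and 68.8 CPM with p65 2CS, 66.4, 67.8 and 64.97 CPM with p65 WT and 77.3, 77.2 and 84.5 CPM with vector. Its log2 fold over vector was -0.19 ± 0.044 with p65 2CS (edgeR adjusted p = 0.0016) and -0.26 ± 0.046 with p65 WT (edgeR adjusted p = 1.5e-05). Between p65 2CS and p65 WT it was 0.08, with an interval of -0.02 to 0.17 (edgeR adjusted p = 0.23). The vector libraries of GCLC stood clear of both p65 groups, as those of TXNRD1 did. Over the 9 libraries the log2 CPM of TXNRD1 and GCLC had a Pearson r of 0.963, as a description of libraries that share the same group means.

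GCLM, the gene of the partner subunit, was called in no comparison. It (ENSG00000023909, chr1:93885205-93909456, minus strand) had 34.6, 32.2 and 33.9 CPM with p65 2CS, 35.0, 36.7 and 35.9 CPM with p65 WT and 35.8, 36.5 and 35.7 CPM with vector. The p65 2CS libraries lay below all others, and the p65 WT and vector libraries overlapped. The log2 fold of GCLM was -0.10 with p65 2CS over p65 WT (edgeR adjusted p = 0.25), -0.10 with p65 2CS over vector (edgeR adjusted p = 0.23) and -0.0061 with p65 WT over vector (95% interval -0.13 to 0.12, edgeR adjusted p = 0.96). Across the 9 libraries GCLM and GCLC had a Pearson r of 0.169, while GCLM and FTL had 0.906. In the promoter windows above, the antioxidant response element core stood in GCLM and in TXNRD1, and not in GCLC. Whether the core bears on these levels was not tested.

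HMOX1, NQO1 and SRXN1 had the lowest CPM of the members, and none was called in any comparison. HMOX1 (ENSG00000100292, chr22:35380361-35394214, plus strand) had 8.85, 6.76 and 5.80 CPM with p65 2CS, 7.38, 7.73 and 6.49 CPM with p65 WT and 7.36, 8.61 and 8.35 CPM with vector. All 3 groups overlapped, and the p65 2CS libraries spread the most. The 95% interval of its log2 fold was -0.31 to 0.27 for p65 2CS over p65 WT, -0.47 to 0.08 for p65 2CS over vector and -0.46 to 0.11 for p65 WT over vector.

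NQO1 (ENSG00000181019, chr16:69706996-69726951, minus strand) had 5.06, 4.01 and 4.43 CPM with p65 2CS, 6.50, 5.51 and 3.83 CPM with p65 WT and 6.03, 4.50 and 5.91 CPM with vector. Its groups overlapped, and the log2 folds with p65 2CS were -0.24 over p65 WT (95% interval -0.60 to 0.12, edgeR adjusted p = 0.34) and -0.29 over vector (interval -0.64 to 0.06, edgeR adjusted p = 0.25). The intervals of NQO1 are the widest among the members. SRXN1 (ENSG00000271303, chr20:646615-653370, minus strand) had 9.78, 8.43 and 7.85 CPM with p65 2CS, 8.20, 9.38 and 11.7 CPM with p65 WT and 11.2, 10.3 and 10.1 CPM with vector. The p65 2CS libraries of SRXN1 lay below the vector libraries without overlap, with a log2 fold of -0.28 ± 0.12 that missed the threshold (edgeR adjusted p = 0.098). The p65 WT libraries of SRXN1 overlapped both other groups. SRXN1 shares 85.0% of its exon bases with the same-strand entry AL121758.1, which had 7, 8 and 10 reads in the groups with p65 2CS, p65 WT and vector. Reads in those bases may have been dropped or assigned to either gene, so the level of SRXN1 carries the limit given for SOD2. The effect on the comparison of groups was not tested.

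The other genes of these pathways were taken by name into lists that hold none of the 10 members, and each list is read beside the shares of all genes called given above. Among 18 tested genes of superoxide and peroxide handling, 1 was higher and 11 lower with p65 2CS than with p65 WT, 6 were called with p65 2CS against vector, all lower, and 4 were higher and 1 lower with p65 WT than with vector. The median log2 folds were -0.15, -0.11 and 0.05. SOD3, which encodes the extracellular superoxide dismutase, had the largest called fold of the list at a low level, with 1.99 ± 0.636 CPM with p65 2CS, 3.18 ± 0.034 with p65 WT and 1.96 ± 0.278 with vector. Its log2 fold was -0.69 ± 0.23 with p65 2CS over p65 WT (edgeR adjusted p = 0.021) and 0.69 ± 0.24 with p65 WT over vector (edgeR adjusted p = 0.023). SOD3 thus stood highest with p65 WT, as SOD1 did. GPX4, which reduces lipid peroxides, had 207 ± 5.66 CPM with p65 2CS, 244 ± 9.96 with p65 WT and 222 ± 5.40 with vector (SD, n = 3 each), the group order of SOD1 and FTH1. PRDX1 and PRDX4, peroxiredoxins that break down hydrogen peroxide, were lower with p65 2CS than in either other group. PRDX1 had 201 CPM with p65 2CS, 235 with p65 WT and 231 with vector, and PRDX4 had 447, 490 and 515 CPM. GPX1, a glutathione peroxidase, was higher with p65 WT than in either other group, at 176 CPM with p65 2CS, 199 with p65 WT and 177 with vector. MSRB3, a methionine sulfoxide reductase, was the gene higher with p65 2CS than with p65 WT, at 40.3 against 32.8 CPM. The 5 calls with p65 WT against vector fell to 2 without vector replicate 3 and to 3 without p65 WT replicate 4 or p65 WT replicate 6, and with plain library totals they were 3 higher and 3 lower.

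Among 11 tested thioredoxin and glutaredoxin genes, 4 were higher and 2 lower with p65 2CS than with p65 WT, 1 higher and 2 lower with p65 2CS than with vector, and 1 higher and 2 lower with p65 WT than with vector, where plain library totals gave 1 higher and 4 lower. TXNIP, the inhibitor of thioredoxin, had 23.4 ± 0.467 CPM with p65 2CS, 18.5 ± 2.36 with p65 WT and 29.5 ± 1.92 with vector. TXNIP was therefore lower in both p65 groups than with vector, as TXNRD1 was, and higher with p65 2CS than with p65 WT. NXN, nucleoredoxin, was higher with p65 WT than in either other group, with 81.3 ± 4.72 CPM with p65 2CS, 108 ± 3.03 with p65 WT and 81.9 ± 1.81 with vector. TXN, which encodes thioredoxin 1, was lower with p65 2CS than in either other group, at 190 CPM with p65 2CS, 219.8 with p65 WT and 221 with vector.

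Among 17 tested genes of glutathione supply and use, 2 were higher and 4 lower with p65 2CS than with p65 WT, 5 were called with p65 2CS against vector, all lower, and 2 higher and 3 lower with p65 WT than with vector. The 5 calls with p65 2CS against vector became 3 when vector replicate 2 or, instead, p65 2CS replicate 8 was left out. The largest called difference of the list in each comparison was in the cystine importer. SLC7A11, its transport chain, had 18.4 ± 1.51 CPM with p65 2CS, 13.2 ± 1.64 with p65 WT and 27.4 ± 0.787 with vector. Its log2 fold was 0.48 with p65 2CS over p65 WT (edgeR adjusted p = 4.0e-05), -0.57 with p65 2CS over vector (edgeR adjusted p = 5.6e-07) and -1.05 with p65 WT over vector (edgeR adjusted p = 2.5e-13). SLC3A2, its heavy chain, which also serves other amino acid transporters, had 480 ± 15.5 CPM with p65 2CS, 353 ± 8.62 with p65 WT and 462 ± 21.1 with vector. CHAC1, which degrades glutathione, was lower with p65 WT than with vector, at 5.13 against 7.09 CPM.

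Among 8 genes of NADPH supply and the pentose phosphate pathway, 6 were called with p65 2CS against p65 WT, all lower. With p65 2CS against vector 1 was higher and 1 lower, and with p65 WT against vector 3 were called, all higher. TALDO1, transaldolase of the pentose phosphate pathway, had 137 ± 5.13 CPM with p65 2CS, 167 ± 2.61 with p65 WT and 137 ± 2.66 with vector. The 2 calls with p65 2CS against vector were 0 with vector replicate 3 left out or with p65 2CS replicate 8 left out. They were 1 without vector replicate 1, vector replicate 2, p65 2CS replicate 7 or p65 2CS replicate 9, and 1 by DESeq2's own test. The 3 calls with p65 WT against vector became 1 without vector replicate 1 or p65 WT replicate 5 and 1 with plain library totals.

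Among 13 genes that control NRF2 or pair with it, 3 were higher and 3 lower with p65 2CS than with p65 WT, 1 higher and 5 lower with p65 2CS than with vector, and 2 higher and 7 lower with p65 WT than with vector. MAFF, a small Maf partner of NRF2, moved most, with 21.1 ± 0.835 CPM with p65 2CS, 63.5 ± 3.01 with p65 WT and 14.7 ± 1.31 with vector. Its log2 fold was -1.59 with p65 2CS over p65 WT (edgeR adjusted p = 7.6e-23), 0.52 with p65 2CS over vector (edgeR adjusted p = 1.4e-06) and 2.11 with p65 WT over vector (edgeR adjusted p = 1.6e-26). The related MAFK was lower in both p65 groups, with 82.9 CPM with p65 2CS, 79.4 with p65 WT and 100 CPM with vector. NFE2L2, the gene of NRF2, was lower with p65 WT than with vector and higher with p65 2CS than with p65 WT, at 48.1 CPM with p65 2CS, 43.4 with p65 WT and 52.5 with vector. Among 19 other tested NRF2 target genes, 6 were called with p65 2CS against p65 WT, all lower, 1 was higher and 3 lower with p65 2CS than with vector, and 5 were called with p65 WT against vector, all higher. EPHX1, microsomal epoxide hydrolase, had 69.0 ± 1.90 CPM with p65 2CS, 96.0 ± 4.47 with p65 WT and 66.1 ± 3.36 with vector. BLVRA, biliverdin reductase, which acts after heme oxygenase, had 33.4 ± 1.43, 43.0 ± 3.07 and 35.0 ± 3.15 CPM in the same groups. The 4 calls of this list with p65 2CS against vector became 2 when vector replicate 2, vector replicate 3 or p65 2CS replicate 8 was left out.

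Among 16 tested genes of iron handling other than ferritin, 1 was higher and 3 lower with p65 2CS than with p65 WT, 2 higher and 3 lower with p65 2CS than with vector, and 3 higher and 2 lower with p65 WT than with vector, where plain library totals gave 2 higher and 3 lower. SLC39A14, a transporter that brings iron into cells, had 117 ± 2.86 CPM with p65 2CS, 144 ± 1.58 with p65 WT and 113 ± 1.48 with vector. SLC25A37, a mitochondrial iron importer, had 65.7 ± 0.542 CPM with p65 2CS, 83.9 ± 0.447 with p65 WT and 68.6 ± 0.449 with vector. NCOA4, the receptor that takes ferritin to lysosomes, was higher in both p65 groups than with vector, with 276 ± 6.92 CPM with p65 2CS, 278 ± 6.04 with p65 WT and 257 ± 4.84 with vector. TF, the gene of the iron carrier transferrin, was the gene higher with p65 2CS than with p65 WT, and it was higher than with vector too. TF had few reads, with 1.42 ± 0.420 CPM with p65 2CS, 0.689 ± 0.156 with p65 WT and 0.683 ± 0.148 with vector, and its log2 fold was 1.05 ± 0.37 over p65 WT (edgeR adjusted p = 0.026) and 1.07 ± 0.36 over vector (edgeR adjusted p = 0.025). The 5 calls with p65 2CS against vector ranged from 0 to 6 when single libraries were left out, with 0 without p65 2CS replicate 8, 2 without vector replicate 1, vector replicate 2 or vector replicate 3 and 3 without p65 2CS replicate 7, and were 1 by DESeq2's own test. Those with p65 WT against vector became 3 without vector replicate 1 or p65 WT replicate 6.

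Of 16 oxidant-producing enzymes only 8 had enough reads to be tested, and of 9 metallothioneins only 3. In the first list 1 was higher and 1 lower with p65 2CS than with p65 WT, 2 were called with p65 2CS against vector, both lower, and 2 with p65 WT against vector, both lower. CYBA, the p22phox subunit of NADPH oxidases, had 121 ± 2.60 CPM with p65 2CS, 147 ± 5.53 with p65 WT and 144 ± 1.97 with vector, and was called lower with p65 2CS in both comparisons, the pattern of FTL. DUOX2, a dual oxidase, was higher with p65 2CS than with p65 WT at a low level, with 1.52 ± 0.133 CPM with p65 2CS, 0.712 ± 0.224 with p65 WT and 1.14 ± 0.244 with vector. NOXA1, an activator of NADPH oxidase 1, was lower in both p65 groups than with vector, at 58.2 CPM with p65 2CS, 56.7 with p65 WT and 64.2 with vector. MAOA, a monoamine oxidase, was lower with p65 WT than with vector, at 16.7 against 20.7 CPM. The 2 calls with p65 2CS against p65 WT became 1 without p65 WT replicate 4 and those with p65 WT against vector became 1 without p65 WT replicate 6. Those with p65 2CS against vector became 1 when vector replicate 1, vector replicate 3 or p65 2CS replicate 9 was left out, by DESeq2's own test and without the expression filter. MT2A, a metallothionein, was lower with p65 2CS than with p65 WT, at 25.0 against 30.8 CPM.

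**Figure D5:**
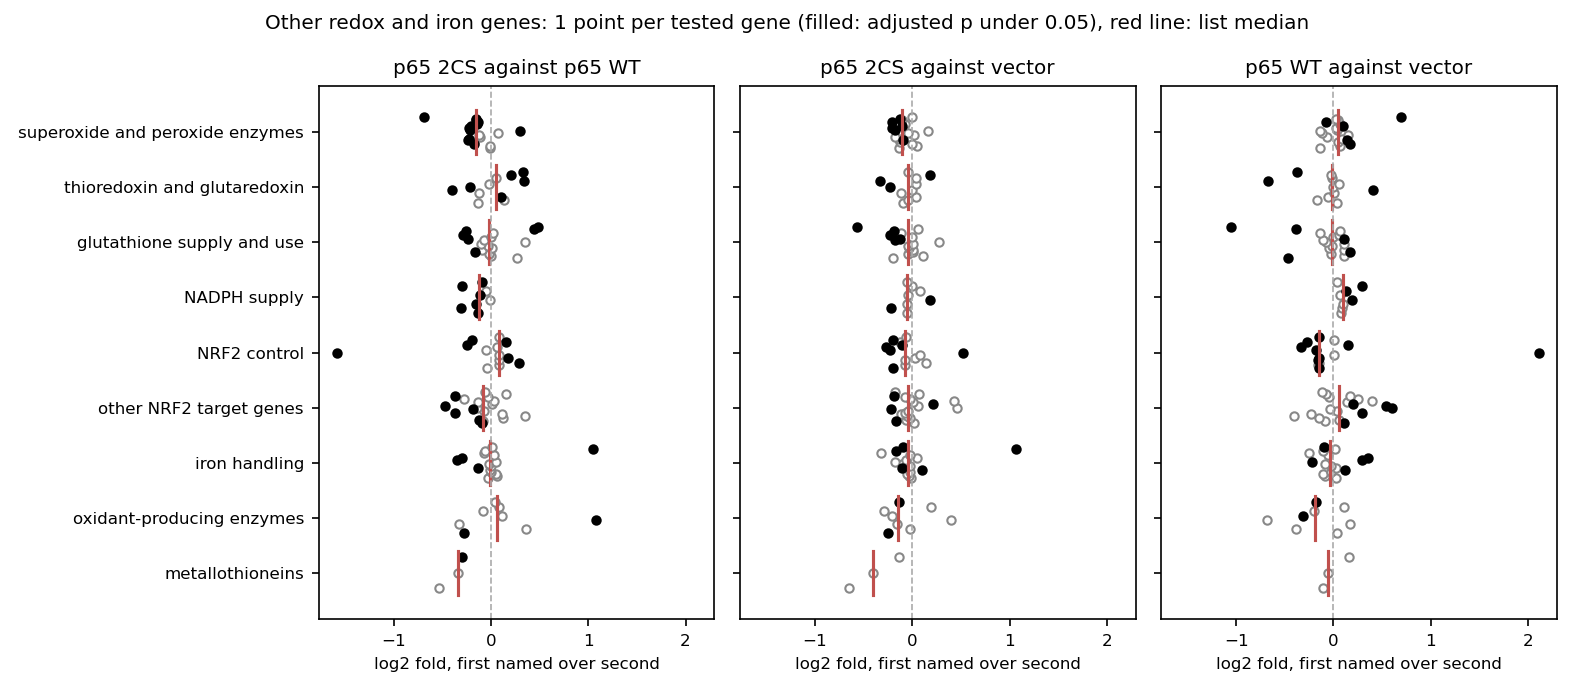
Log2 fold (horizontal axis, first-named group over second) of every tested gene in 9 lists of other redox and iron genes, in 1 panel per comparison; each point is a gene, filled where the edgeR adjusted p was under 0.05, and red lines mark the list median. Most points lie within 0.5 of 0, and the far point of the NRF2 control list is MAFF, at -1.59 with p65 2CS against p65 WT and 2.11 with p65 WT against vector.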

How the data were processed

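The authors' deposited table holds raw gene counts with no normalization for 9 libraries and 58735 genes. Per the submitters' processing notes, the aligner was HISAT2 2.0.5. How reads were counted, with or without strand, and on which build, is not given in the sources used here; all 58735 identifiers and positions matched GENCODE release 29 on GRCh38. The main test ran in R 4.3.3 on edgeR 4.0.16 (expression filter, TMM, quasi-likelihood F test, all 9 libraries in 1 fit, Benjamini-Hochberg threshold 0.05). Alternatives were DESeq2 1.42.0 and its size factors, limma 3.58.1 voom, plain library totals, no filter, only the 2 groups compared, RELA left out, pseudogene reads added, and each library left out. The steps were tested on simulated data. Correlations used log2 CPM with a prior count of 2. Libraries of a group differed by more than sampling noise (chi-square per degree of freedom 1.91 to 2.64). Library totals were 17146134 to 25068515 with p65 2CS, 15989601 to 16507689 with p65 WT and 17923114 to 20162267 with vector. Promoter windows came from RefSeq, matched by symbol for 7 of the 10 members. The members and lists were chosen with earlier results of these data known. By rule, the text names all members and, in each list, genes from the 3 with the largest log2 fold among those called in a comparison.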

Additional observations from a re-analysis of the deposited data

How the results depend on the processing

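No paired analysis was possible because the groups share no replicate numbers in the labels. The number of members called was 3 with p65 2CS against p65 WT and 4 with p65 WT against vector under all 17 alternatives. With p65 2CS against vector it was 5, and it ranged from 3 (without vector replicate 2, losing SOD1 and FTH1) to 5 when single libraries were left out, and from 4 to 5 under the other alternatives. Of 510 values of single members under these alternatives, 484 kept direction and side of the threshold, 9 kept direction but lost the call, and 17 changed sign, all of genes not called. The log2 fold of GCLM with p65 WT over vector was 0.0058 with DESeq2 size factors, 0.0058 in the DESeq2 test, 0.00036 without the filter, 0.0066 with only the 2 groups, 0.011 with RELA left out, and -0.024 to 0.012 with single libraries left out. That of HMOX1 with p65 2CS over p65 WT was 0.0060 with plain totals and -0.19 to 0.10 with libraries left out. That of SOD2 with p65 2CS over p65 WT was 0.015 with plain totals and -0.027 to 0.0031 with libraries left out. With p65 WT over vector, leaving out libraries gave -0.23 to 0.14 for NQO1 and -0.26 to 0.0058 for SRXN1. The cause of these shifts was not tested. Plain totals turned the share of called genes that were higher with p65 WT than with vector to 41.3%, against 56.8% with TMM scaling. The same share was 52.3% against 42.8% with p65 2CS over p65 WT, and 45.1% against 51.4% with p65 2CS over vector. Plain totals moved the median log2 fold of all genes by -0.043 with p65 WT over vector. The move was 0.028 with p65 2CS over p65 WT and -0.015 with p65 2CS over vector. DESeq2's size factors moved that median by 0.012 at most. The number of all genes called stayed within 1.5 times its value in every alternative. Low counts limit HMOX1, NQO1 and SRXN1 the most.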
